A study of Mus musculus with 8 samples.

Results

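Mixed pyrimidine runs of 4 to 7 bases were examined on a DNA microarray stained for UV lesions. A run is an unbroken stretch of at least 2 pyrimidines, sought on the printed strand and on its reverse complement. The probes described here hold exactly 1 run over both strands, and that run is 4 to 7 bases long with at least 1 cytosine. This rule uses the sequence alone and found 6879 probes among the 122086 that share the common 3′ end, out of 122095 different sequences on the array. All 236 mixed runs possible at these lengths were present, on 7 to 184 probes each, with 3298 probes carrying the run on the printed strand and 3581 on the complement.

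The array was stained with a mouse antibody against cyclobutane pyrimidine dimers (CPDs) at a dilution of 1 to 400, and with a mouse antibody against 6-4 photoproducts (6-4PPs) at 1 to 80. Each antibody was used on 2 UV-irradiated arrays and on 2 arrays without UV, which gives 8 arrays in 4 groups. The design text gives the aim as measuring antibody signal for short sequences. The DNA is synthetic and belongs to no genome, and UV dose, staining and second-strand synthesis were not stated in the sources used here.

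UV light can join neighbouring pyrimidines of a strand, so lesions form at the steps TT, TC, CT and CC. In a CPD a cyclobutane ring links the pair, and TT steps are known for forming it most readily. In a 6-4PP a single bond links the pair, and TC and TT steps are its best known sites. Lesions that hold a cytosine are known for giving C-to-T changes, the mutation typical of sunlight, so a run that mixes both bases offers several sites of unlike kind.

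The variable first 24 bases of example probes are printed here, 5′ to 3′, with the pyrimidine run in capitals. Most values given below are medians over many such probes. Of those listed, probe CTTT after A was far brighter on UV replicate 2 than on UV replicate 1 with each antibody. The first set places the 15 mixed runs of 4 bases in the same surroundings, directly after A:
probe CCCC after A: cgtatgcacaCCCCgtatgtatgc
probe CCCT after A: cgtatgcacaCCCTgtatgtatgc
probe CCTC after A: cgtatgcacaCCTCgtatgtatgc
probe CCTT after A: cgtatgcacaCCTTgtatgtatgc
probe CTCC after A: cgtatgcacaCTCCgtatgtatgc
probe CTCT after A: cgtatgcacaCTCTgtatgtatgc
probe CTTC after A: cgtatgcacaCTTCgtatgtatgc
probe CTTT after A: cgtatgcacaCTTTgtatgtatgc
probe TCCC after A: cgtatgcacaTCCCgtatgtatgc
probe TCCT after A: cgtatgcacaTCCTgtatgtatgc
probe TCTC after A: cgtatgcacaTCTCgtatgtatgc
probe TCTT after A: cgtatgcacaTCTTgtatgtatgc
probe TTCC after A: cgtatgcacaTTCCgtatgtatgc
probe TTCT after A: cgtatgcacaTTCTgtatgtatgc
probe TTTC after A: cgtatgcacaTTTCgtatgtatgc
The second set holds 4 of the same runs directly after G, since the base before the run went with wider differences than the base after it:
probe CTTC after G: cgtatgcacgCTTCgtatgtatgc
probe TCCC after G: cgtatgcacgTCCCgtatgtatgc
probe TTCC after G: cgtatgcacgTTCCgtatgtatgc
probe TTTC after G: cgtatgcacgTTTCgtatgtatgc
A run on the complement shows as capital purines on the printed strand, as in this probe whose complement carries TCCCC:
complement TCCCC: gtatgcgtGGGGAtgtatgtatgc
Every probe described here then continues with the same 36 bases, which hold no dipyrimidine step on either strand:
shared end: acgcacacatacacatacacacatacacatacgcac

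The probes were spread over 2515 with a run of 4 bases (15 runs), 1753 with 5 (31 runs), 1644 with 6 (63 runs) and 967 with 7 (127 runs). Runs began at base 6 to 17 of the probe. On its own strand each run is preceded and followed by A or G, because any pyrimidine beside it would lengthen it. The exhaustive 8-mer part of the design holds 6413 of these probes, and they fall into complete frames, sets of probes that place every mixed run of a length in identical surroundings. There are 160 frames for runs of 4, 52 for 5, 24 for 6 and 7 for 7. A further 188 probes come from a 9-mer part and 278 from probes designed for transcription factors or other purposes.

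Values are the deposited fluorescence intensity (Alexa dye) adjusted for local neighbourhood, from which no background was subtracted, so ratios understate changes in lesion signal. The UV effect is the log2 of UV over non-UV, after each array was centred on the median of its 550 probes without any dipyrimidine step. Those probes had medians of 1617 and 1603 on the CPD UV arrays, against 1219 and 1048 on the CPD non-UV arrays. With the 6-4PP antibody they had 1954 and 1951 on UV arrays, against 1497 and 1246 on non-UV arrays. A single spot held the sequence for 6101 of the 6879 probes, so a single speck could decide a probe's value on an array. At least 1 spot was saturated on some array for 46 of them.

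Arrays of different antibodies that carry the same replicate number and UV condition did not vary independently. Deviations between replicates, taken over all probes, correlated between the antibodies with r = 0.707 on UV arrays and r = 0.765 on non-UV arrays (Spearman 0.438 and 0.402). Across UV conditions the correlations lay between -0.00323 and 0.000791. Same-numbered UV arrays shared 79 and 112 saturated spots, and same-numbered non-UV arrays shared 74 and 39, whereas differently numbered arrays shared 1 at most. Whether both antibodies were read on the same physical arrays was not tested, and counts for the difference of the antibodies are also given with same-numbered arrays as a block. The labels do not say that replicate arrays came from separate preparations, so p-values measure the spread between these arrays only.

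UV treatment raised the staining of most of these probes with both antibodies. With the CPD antibody their median was 2391 and 2274 on UV arrays, against 1223 and 1040 on non-UV arrays. With the 6-4PP antibody it was 4084 and 4029 on UV arrays, against 1524 and 1242 on non-UV arrays. With each antibody both UV medians lay above both non-UV medians, as they also did for step-free probes and over all probes. Values of single probes did overlap. On UV arrays the replicates correlated across these probes with r = 0.916 (CPD) and 0.907 (6-4PP), and on non-UV arrays with r = -0.00012 and 0.00711, as descriptions over probes that share their arrays.

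In the limma fit over all probes, 3928 of the 6879 passed the threshold upward with the CPD antibody (57.1%), beside 70.5% of all probes, and 64 passed it downward (0.93%), beside 0.473% of all. The downward count was 32 or 36 without CPD UV replicate 1 or 2, and 1 on unadjusted intensity. With the 6-4PP antibody 5821 passed upward (84.6%), beside 86% of all probes, and 8 downward (0.116%), beside 0.203%, or 57 and 29 downward without 6-4PP non-UV replicate 1 or 2. The upward share called with CPD was thus below the background and that with 6-4PP close to it. The median UV effect of these probes was 0.52 with CPD and 1.04 with 6-4PP, against 1.11 and 1.71 over all probes. Directions depend on the level set to 0: centred on the median of all probes, 1585 were higher and 3939 lower with CPD, and 1101 higher and 4179 lower with 6-4PP. After quantile normalization, which gives all arrays a common distribution, 92 were higher and 269 lower with CPD, and 24 higher and 183 lower with 6-4PP.

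Taken by run instead of by probe, 181 of the 236 mixed runs (76.7%) passed upward with CPD, and 0 passed downward. The share over all 305 lone runs tested, which include these 236, was also 76.7%. By limma, 0 runs were lower with either antibody at an unadjusted p under 0.05 as well, and 6 of the 236 had a CPD effect below 0, the lowest being -0.12. With 6-4PP all 236 passed upward, beside 99.7% of all lone runs, and 0 downward. A run's value is the median over its probes of both strands. With CPD 4 runs passed downward on the complement strand alone and 1 with strands weighted equally, both settings chosen after seeing the data. Centred on the median of all probes, 129 runs (CPD) and 206 (6-4PP) were lower, and after quantile normalization 73 and 85.

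Compared with their nearest kin by pooled medians, mixed runs gave less CPD signal than runs of thymine alone and more 6-4PP signal. Set against lone T runs of 4 to 7 bases (258 probes), the UV effect of mixed runs was lower by a log2 difference of -1.36 with CPD and higher by 0.39 with 6-4PP. Printed T runs had 12348 and 11311 with CPD after UV, where mixed runs had 4702 and 4249. Against the 2609 probes with a lone mixed triplet, mixed runs were higher by 0.36 with CPD and 0.40 with 6-4PP. Against probes with no step the differences were 0.54 and 1.04. In each of these 6 comparisons both UV arrays lay on the same side of both non-UV arrays, with p = 0.333 by an exact permutation test (two-sided), the smallest value that 2 arrays against 2 allow. The 6-4PP difference from T runs varied with the base before the run. In printed frames of 4 after A, TTTT had a 6-4PP effect of 1.81, and mixed runs had 0.32 (CCCC) to 2.48 (TTCT). After G, TTTT had 0.37, and mixed runs had 0.17 (CCCC) to 2.20 (CCTT).

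With the CPD antibody the runs divided by the presence of TT. All 160 runs with at least 1 TT step passed upward, with UV effects of 0.365 to 2.65. Of the 76 runs without TT, 21 passed, and their effects ran from -0.12 to 0.28. The ranges of the sets with and without TT do not overlap.

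The same split stood out in intensity. On the printed strand, probes with TT had CPD medians of 6801 and 6199 on UV arrays, against 1239 and 1042 on non-UV arrays. Probes without TT had 1873 and 1836 on UV arrays, against 1253 and 1041 on non-UV arrays. Those without TT thus stayed close to the level of step-free DNA, which was 1617 and 1603 on the same arrays. The with-minus-without difference in UV effect was 1.11 over both strands and 1.82 on the printed strand (exact two-sided permutation p = 0.333 for each, n = 2 per group).

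Further TT steps added less than the first. For printed runs the median CPD effect was 0.19 with 0 TT steps, 1.73 with 1, 2.18 with 2, 2.56 with 3, 2.83 with 4 and 2.89 with 5, the last over 7 probes. On the complement strand the same series was 0.05, 0.55, 0.81, 0.99, 1.16 and 1.34. Both strands therefore ran in the same order. With 6-4PP no such order appeared, since the printed medians were 1.53, 2.28, 1.92, 1.92, 1.975 and 1.96.

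Because every mixed run of 4 occurs in the same frames, the place of each base can be read with the surroundings held fixed. After A on the printed strand (48 frames), TTTC gave 11322.5 and 10168 on the CPD UV arrays, TTCT gave 9679 and 9174, and TTCC gave 9682 and 8969. CTTT followed with 7989 and 6953, then CCTT with 5815 and 5433, CTTC with 5725 and 5298, and TCTT with 5563 and 5080. The 8 runs without TT had 1605 to 2169. Non-UV frame medians of all 15 runs, after A or G, lay between 1007 and 1279.

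The CPD signal of a single TT differed with its place in the run. CTTC and TTCC contain the same bases, and after A on the printed strand the UV effect of CTTC was higher than that of TTCC in 2 of 48 frames, with a median difference of -0.80. CCTT was higher than TTCC in 5 of 48 frames, by a median of -0.72. After A on the printed strand a TT at the 5′ edge of the run thus went with the stronger CPD signal. After G on that strand the order turned: CTTC was higher than TTCC in 24 of 32 frames (median 0.28) and CCTT in 31 of 32 (0.54). On the complement strand after A, CTTC was higher than TTCC in 7 of 48 frames (-0.43) but CCTT in 22 of 48 (-0.04), and after G CTTC was higher in 19 of 32 (0.06) and CCTT in 29 of 32 (0.53).

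With the 6-4PP antibody, the pooled medians of probes without TT differed by the presence of a TC step. Runs of cytosine alone were lowest, with printed medians of 2523 and 2585 on UV arrays, against 1563 and 1232 on non-UV arrays. Among probes without TT, those with a TC step had 6358 and 6445 on UV arrays, against 1573 and 1265 on non-UV arrays, all on the printed strand. Those with neither TT nor TC had 2759 and 2852 on UV arrays, against 1561 and 1236 on non-UV arrays. Their printed UV effects were 1.67 with TC and 0.50 without.

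The frames show the 6-4PP differences base by base. After A on the printed strand, CTTC had 11462 and 11871 on the 6-4PP UV arrays and TTCT had 10877 and 11421. By UV effect their order was the other way, with 2.44 for CTTC and 2.48 for TTCT. CCTC had 6246 and 6293, while CCCT, with the same composition, had 3136 and 3237. CCTC was higher than CCCT in 48 of 48 frames with 6-4PP (median difference 0.88), against 20 of 48 with CPD (-0.11). CCCC was lowest with 2554 and 2576. In these 48 frames a lone thymine placed before the last cytosine thus went with more 6-4PP staining than a thymine at the 3′ end.

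Among runs with alternating bases, TCTC had 6943 and 6721 on the 6-4PP UV arrays and CTCT had 4665 and 4744 (printed strand, after A). TCTC was higher in 43 of 48 frames, with a median difference of 0.48. With CPD the same pair gave 1998 and 1899 for TCTC, and 2169 and 2073 for CTCT, and TCTC was higher in 19 of 48 frames (-0.14).

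The base directly before the run went with a wide difference for runs that open with TT, and a small one for runs that open with CC. Contexts with A or G before the run were compared, matched for run, strand and the base after the run. Each context is a median over its probes, and their other bases and the start of the run were not matched. For runs opening with TT, A gave the higher UV effect in 163 of 164 contexts with each antibody, by a median of 0.645 with CPD and 0.90 with 6-4PP. For runs opening with TC, A was higher in 165 of 178 contexts with 6-4PP (median 0.55) and in 102 of 178 with CPD (0.045). For CT the medians were 0.13 with CPD and 0.26 with 6-4PP, and for CC 0.03 and 0.065. Frames of 4 that differ at this base only gave CPD medians over runs of 1.31 (printed) and 0.56 (complement) for TT. For CC those frames gave -0.04 with CPD on each strand. These splits by opening step were chosen after values had been seen and are given without a test.

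Single probes show the size of this. Probe TTCC after A had 9730 and 9609 on the CPD UV arrays, against 1282 and 1017 on the CPD non-UV arrays, while probe TTCC after G had 4782 and 4606, against 1274 and 1015. With the 6-4PP antibody probe TTCC after A had 12170 and 12802 on UV arrays, against 1372 and 987 on non-UV arrays, while probe TTCC after G had 2896 and 3024, against 1656 and 1299. Probe TTCC after G thus lay below probe TTCC after A on both UV arrays of each antibody, and further below it with 6-4PP. The UV effects were 2.57 (SE 0.107, limma adjusted p = 1.59e-06) and 1.535 (SE 0.092, adjusted p = 6.15e-06) with CPD, for the probes after A and after G in that order. With 6-4PP they were 2.91 (SE 0.107, adjusted p = 7.81e-07) and 0.50 (SE 0.092, adjusted p = 0.00172).

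The pair of probes with TCCC holds no TT. Probe TCCC after A had 9027 and 7705 on the 6-4PP UV arrays, against 1736 and 1699 on non-UV arrays, and probe TCCC after G had 2607 and 2395, against 1485 and 1075. With CPD neither passed the threshold (limma adjusted p = 0.0836 for probe TCCC after A and 0.799 for probe TCCC after G). The probes with CTTC after A and after G, in which a cytosine separates the flank from TT, were closer together, with 6-4PP UV effects of 2.62 (SE 0.125, adjusted p = 1.56e-06) and 2.17 (SE 0.152, adjusted p = 8.79e-06).

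Over all frames of 4 on the printed strand, the 6-4PP effect of TTCC was 2.27 after A and 0.40 after G, that of TTCT 2.48 and 0.43, and that of TTTC 1.95 and 0.61. TCCC had 1.74 after A and 0.23 after G, and TCCT 1.76 and 0.41. By contrast CCTT had 2.26 and 2.20, and CCTC 1.63 and 1.49. Runs that open with TC but hold a later TT or TC step after a cytosine kept more of their 6-4PP effect after G, with 2.14 after A and 1.77 after G for TCTT, and 1.71 and 1.17 for TCTC.

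This pattern can be stated for the whole set by counting, on the run's own strand, the TT or TC steps that directly follow A or C. The class was defined after values had been seen and is given as a description. Among printed runs, 543 probes with 0 such steps had a 6-4PP effect of 0.51, 1921 probes with 1 had 1.93, 784 with 2 had 2.27 and 50 with 3 had 2.39. The 198 printed probes with TT but no such step had CPD medians of 5095 and 4533 on UV arrays, against 1236 and 1037.5 on non-UV arrays. With 6-4PP the same 198 had 2865 and 2921 on UV arrays, against 1552 and 1230 on non-UV arrays. These probes therefore stained clearly with CPD and weakly with 6-4PP, with effects of 1.575 and 0.55. Lone mixed triplets split the same way on the printed strand, with 6-4PP effects of 1.97 where such a step was present and 0.30 where it was absent.

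The base after the run went with a small difference. A minus G on the 3′ side gave a difference of 0.03 with CPD and 0.06 with 6-4PP over all these probes (exact two-sided permutation p = 0.333, n = 2 per group). The place of the run on the probe gave 0.01 and -0.03 for starts at base 6 to 8 against later starts. Over both strands, both lie far below the differences between runs. The strands went opposite ways by start, so the value over both hides part of the difference. On the printed strand alone, earlier starts were higher by 0.36 with CPD and 0.23 with 6-4PP. On the complement the same difference was -0.045 with CPD and -0.146 with 6-4PP. For printed runs of 4 alone, the CPD effect was 0.66 at starts 6 to 8, 0.55 at 9 to 10 and 0.50 at 11 to 17.

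Probes with 1 cytosine show what replacing a thymine does, because the frames also hold the pure T run. In the 48 printed frames of 4 after A, the change in CPD effect against TTTT was -0.87 for CTTT, -1.20 for TCTT, -0.43 for TTCT and -0.30 for TTTC. CPD was lower than in TTTT in 48, 48, 44 and 31 of 48 frames. In 6-4PP the same replacements gave 0.11, 0.44, 0.50 and 0.17. In these frames after A the CPD loss was largest for a cytosine at the second base and smallest for the last, while 6-4PP was higher on median at each place.

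After G the picture with 6-4PP was wider. TTTT had a 6-4PP effect of 0.37 in the 32 printed frames after G. CTTT had 1.58 there, higher than TTTT in 31 of 32 frames with a median change of 1.22, and TCTT had 1.77, higher in 32 of 32 with a change of 1.37. TTCT changed by 0.02 and TTTC by 0.26. The CPD change in these frames was -0.17 for CTTT (lower in 18 of 32), -0.30 for TCTT (29 of 32), -0.83 for TTCT (32 of 32) and -0.36 for TTTC (27 of 32). After G the largest CPD loss in runs of 4 was thus at the third base, where after A it was at the second. In these printed runs of 4 after G, a cytosine at the first or second base was thus accompanied by a higher 6-4PP signal. For CTTT the direction of the CPD change varied between frames.

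On the printed strand, a cytosine inside a longer run, with TT on both sides of it, combined high signal for both antibodies. In the 14 printed frames of 5 after A, TTCTT had 14988 and 12729 on the CPD UV arrays and 16086 and 17111.5 on the 6-4PP UV arrays. TTTTT had 16623 and 15483 with CPD but 7937 and 8202 with 6-4PP. Against TTTTT the change of TTCTT was -0.24 with CPD and 1.18 with 6-4PP, and 6-4PP was higher in 14 of 14 frames. After G the 6-4PP change was 1.42, higher in 10 of 10 frames. In the 8 printed frames of 6 after A, TTCTTT and TTTCTT changed 6-4PP by 1.04 and 0.71 against TTTTTT, each higher in 8 of 8, and CPD by -0.22 and -0.235. On the complement strand TTCTT changed 6-4PP by 0.59 after A and 0.30 after G. There TTCTTT after G changed 6-4PP by -0.02 (higher in 2 of 4 frames) and CPD by -0.46.

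Elsewhere in printed runs of 5 after A a single cytosine left 6-4PP near the T run. The changes were -0.02 for CTTTT, -0.08 for TCTTT, 0.01 for TTTCT and 0.05 for TTTTC. The CPD changes of these 4 were -0.87, -1.41, -0.50 and -0.535. The second base again showed the largest CPD loss after A. After G (10 printed frames) the CPD changes were -0.14 for CTTTT, -0.525 for TCTTT, -0.02 for TTCTT, -0.47 for TTTCT and -0.26 for TTTTC.

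Averaged over frames and lengths, the place of a single cytosine gave smaller differences. A lone cytosine at the 3′ end minus a lone cytosine at the 5′ end gave 0.11 with CPD and -0.33 with 6-4PP (255 and 259 probes), and on the printed strand 0.34 and -0.13. On unadjusted intensity the CPD value was 0.01. A lone cytosine inside minus a lone cytosine at an end gave -0.11 and 0.145. Probes with 1 cytosine against those with 2 or more gave 1.00 with CPD and -0.10 with 6-4PP. In the last comparison the 6-4PP value was 0.002 on the printed strand alone. Each of these differences had an exact two-sided permutation p of 0.333 over both strands (n = 2 arrays per group).

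By number of cytosines the antibodies parted. For printed runs the CPD effect was 2.34 with 1 cytosine, 1.72 with 2, 0.48 with 3, 0.295 with 4, 0.18 with 5, 0.06 with 6 and 0.12 with 7. The 6-4PP effect was 1.91, 1.98, 1.91, 1.85, 1.77, 1.45 and 0.69 over the same series. The last class is CCCCCCC on 3 probes. The pooled 6-4PP effect thus stayed between 1.77 and 1.98 up to 5 cytosines, while the CPD effect at 5 was close to the 0.19 of printed runs without TT. Run length and step make-up also change along this series. With 5 cytosines the printed 6-4PP effect was 0.43 for CCCCC and 2.515 for TCCTCCC.

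Longer runs stained somewhat more. Lengths 6 and 7 against 4 and 5 gave a difference of 0.31 with CPD and 0.295 with 6-4PP (exact two-sided permutation p = 0.333, n = 2 per group). On the printed strand, CPD medians on UV arrays were 2413 and 2339 for length 4, 4697 and 4299 for 5, 5327 and 4958 for 6, and 5881 and 5620 for 7. With 6-4PP they were 6310 and 6415 for length 4, 7401 and 7515 for 5, 8203 and 8290 for 6, and 9479 and 9726 for 7. The share of runs with TT rises with length by construction, and how much of the length difference goes with it was not tested.

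A run on the printed strand stained more strongly than the same run on the complement. The printed value was higher for 231 of 236 runs with CPD and for 236 of 236 with 6-4PP, and in 751 and 808 of 817 contexts matched for run and flanks. The difference in UV effect was 1.07 with CPD and 1.13 with 6-4PP. Medians on UV arrays were 4702 and 4249 printed, against 2150 and 2042 on the complement, with CPD. With 6-4PP they were 7491 and 7595 printed, against 3314 and 3267 on the complement. The making of the complement was not stated, and the source of the difference was not tested.

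The run sequences with the largest CPD effect were TTTCCTT with 2.65, TTTCTT with 2.60, TTTCTTT with 2.28, TTCTTTC with 2.26, CCTTTT with 2.12 and CTTCCTT with 2.10. TTTCCTT had 9846 and 10343 on UV arrays, against 1245 and 1021 on non-UV arrays, an effect of 2.65 (SE 0.0804, limma adjusted p = 3.52e-07). The limma adjusted p of the other 5 was 9.01e-07 at most. Each of the 6 holds at least 2 TT steps. With strands weighted equally, a setting chosen after seeing the data, CCTTTT had 1.70 and CTTCCTT 1.65. Both lay below the 2.03 of TTCTT, which is not among the 6. Values over both strands depend on how a run's probes divide between strands, so the printed values are given too: 3.17 for TTTCCTT, 3.095 for TTTCTT, 3.35 for TTTCTTT, 3.07 for TTCTTTC, 2.48 for CCTTTT and 2.425 for CTTCCTT.

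The smallest CPD effects were -0.12 for TCCCCTC, -0.07 for TCTCCCT, -0.04 for CCCCTCC, -0.03 for TCCTCCC, -0.02 for CCCCCC and -0.01 for CTCCTCC, and none passed the threshold (limma adjusted p of 0.244 to 0.946). All 6 lack TT. TCCTCCC had 1593 and 1578.5 on the CPD UV arrays, against 1234 and 1052 on non-UV arrays. With 6-4PP the same run had 5665 and 5417 on UV arrays, against 1562 and 1261 on non-UV arrays, an effect of 1.465 (SE 0.0459, adjusted p = 2.52e-07). On the printed strand alone its CPD effect passed upward (0.31, limma adjusted p = 0.000964). The printed CPD effects of the other 5 were 0.185 for TCCCCTC, 0.04 for TCTCCCT, 0.13 for CCCCTCC, -0.003 for CCCCCC and 0.13 for CTCCTCC, so the order of these weakest runs depends on strand. With strands weighted equally the lowest CPD effect was -0.13 for CCCTCCC, which is not among the 6.

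With 6-4PP the largest effects were 2.83 for CTTCCTT, 2.41 for CTTCTT, 2.29 for TTTCCTT, 2.19 for CTCCTT, 2.18 for TCCTTC and 2.085 for CTTCTC. The run CTTCCTT had 13472 and 14515.5 on UV arrays, against 1522 and 1249 on non-UV arrays, an effect of 2.83 (SE 0.0955, limma adjusted p = 3.00e-07). All 6 contain both a TT step and a TC step. CTTCCTT has 7 of its 13 probes on the printed strand, where its effect was 3.035, and with strands weighted equally, a setting chosen after seeing the data, it was 2.17. Under that setting the largest 6-4PP effect was 2.28 for CTCCCTT, which is not among the 6.

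The smallest 6-4PP effects were 0.22 for CCCC, 0.235 for CCCCCC, 0.24 for CCCCC, 0.36 for CCCCCCC, 0.39 for CCCT and 0.39 for CCCCCT. The run CCCC had 2260 and 2320 on UV arrays, against 1544 and 1232 on non-UV arrays, an effect of 0.22 (SE 0.0468, limma adjusted p = 0.00268). All 6 passed. CCCCCCC, the longest, had an SE of 0.0776, and its difference from CCCC was not tested. In these runs the only steps are CC and, in 2 of them, a closing CT.

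Taking the difference of the antibodies as an interaction, 560 of the 6879 probes were higher for CPD (8.14%), beside 10.6% of all probes, and 2497 were higher for 6-4PP (36.3%), beside 36.9% of all. By run, 38 of 236 (16.1%) were higher for CPD, beside 17.4% of all lone runs. Another 137 (58.1%) were higher for 6-4PP, beside 57% of all lone runs, which include these 236. These shares are close to the background, except that fewer probes were higher for CPD. With the same-numbered arrays as a block, added after seeing the data, 761 and 3024 probes and 37 and 139 runs passed. Centred on the median of all probes, 2120 probes were higher for CPD and 915 for 6-4PP, so this split depends on the level set to 0. By run that centring gave 112 higher for CPD and 62 for 6-4PP, and quantile normalization gave 26 and 5.

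Runs at the ends of this difference have plain make-up. Over printed probes TTTTTTC had the highest difference, 1.43, from a CPD effect of 3.22 and a 6-4PP effect of 1.80, followed by TTTTTC with 1.22. TCCTCTC had the lowest, -2.45, from 0.23 with CPD and 2.68 with 6-4PP, followed by TCCTCCT with -2.38. Thymine runs closed by a cytosine thus stood at the CPD end, and runs with several TC steps and no TT at the 6-4PP end.

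Among single probes, the largest effects were in part set by a bright spot on 1 array. The probe gtatgcaTTCCCCTatatgtatgc had 10269 and 78141 on the CPD UV arrays, against 1143 and 1006 on non-UV arrays, an effect of 4.21 (SE 1.08, limma adjusted p = 0.0105). Without CPD UV replicate 2 it was 2.74. The probe cgtatgcaTTTCgcgtatgtatgc had 10121 and 56161 on the CPD UV arrays, against 1276 and 1036 on non-UV arrays, with 3.86, or 2.62 without CPD UV replicate 2 (adjusted p = 0.0764).

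The other 2 of the 4 largest CPD effects were even between replicates. The probe gtatgcaTTTTCTTatatgtatgc had 25203 and 23845 on UV arrays, against 1176 and 1088 on non-UV arrays, an effect of 3.93 (SE 0.166). The probe gtatgcaTTCTTTTgtatgtatgc, printed on 2 spots, had 21353 and 18882 on UV arrays, against 1241 and 986 on non-UV arrays, an effect of 3.67 (SE 0.106). Both place a TT-rich run of 7 directly after A on the printed strand.

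With 6-4PP, gtatgcatacaTTCCCTCacgcgc had 31007 and 32478 on UV arrays, against 1646 and 1035 on non-UV arrays, an effect of 4.09 (SE 0.202, limma adjusted p = 1.77e-06). The probe gtatgcgtacaTCTCCTTatgcgc had 25091 and 28006 on UV arrays, against 1295 and 1336 on non-UV arrays, an effect of 3.82 (SE 0.221, adjusted p = 3.46e-06). In both the run begins after A, at base 12 of the probe. The remaining members of the top 4 were gtatgcaTTCCCCTatatgtatgc (4.07, or 2.79 without 6-4PP UV replicate 2, adjusted p = 0.0553) and tatgcaTTCTTTgtgtatgtatgc (4.12, or 3.10 without 6-4PP UV replicate 1).

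None of the 8 smallest effects passed the threshold (limma adjusted p of 0.228 to 0.318), and each had 1 non-UV array far brighter than the other. The probe gtatgcGGGGAtatgtatgtatgc, which carries TCCCC on the complement, is typical. It had 1781 and 1388 on the CPD UV arrays, against 68808 and 1218 on non-UV arrays. For cgtatgcAGGAcacatatgtatgc the 6-4PP values were 1981 and 2249 on UV arrays, against 70533 and 1306 on non-UV arrays.

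For the difference of the antibodies, cgtatgcgTTTTCTatatgtatgc was the clearest probe at the CPD end. It had 7862 and 7375 on the CPD UV arrays, against 1239 and 1182 on non-UV arrays. With 6-4PP it had 2560 and 2300 on UV arrays, against 1613 and 2023 on non-UV arrays. The difference was 2.23 (SE 0.272, limma adjusted p = 0.00085), and the run directly follows G. At the 6-4PP end tatgcatgcgcatgcaCTCCgcgc had 29883 and 20985 on the 6-4PP UV arrays, against 1510 and 1231 on non-UV arrays, with a difference of -3.085 (SE 0.347, adjusted p = 0.000625). The other 4 named probes at the ends rested on a bright spot and did not pass (adjusted p of 0.0678 to 0.447).

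Among these probes, 25618 pairs have equal run length and differ at 1 base, and 6604 of the 6879 belong to at least 1 such pair. In each of the 3 widest pairs per antibody, the lower probe had 1 non-UV array far brighter than the other. With CPD the widest pair was cgtatgcataTTCCatatgtatgc over cgtatgcataTCCCatatgtatgc (C12T, the base of the lower probe first and positions counted from 1 at the 5′ end), with a difference of 5.02. The lower probe had 1909 and 1748 on UV arrays, against 1318 and 36510 on non-UV arrays. The upper probe had 10091 and 10411 on UV arrays, against 1245 and 1155 on non-UV arrays. The other 2 CPD pairs differed by 5.01 (C7T) and 4.73 (C8T), and each again has TT in the upper probe where the lower has none. With 6-4PP the widest pairs differed by 4.31 (A15G), 4.02 (C14T) and 3.78 (G8A), all at a base outside the run, and in 2 of them the upper probe was also bright on 1 UV array.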

How the data were processed

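The labels give 8 arrays in 4 groups, CPD and 6-4PP antibody with and without UV, 2 replicates each. Per the file headers, the deposited files hold the Alexa dye intensity of 180880 spots per array and an intensity adjusted for the median of each spot's neighbourhood, which was used here. The software behind it was not stated there, and scanned values end at 65535. Spots of a sequence were averaged, log2 values taken from the deposited intensity, and each array centred on the median of its 550 step-free probes. limma (version 3.58.1 in R 4.3.3, with the data.table package, 1.17.8) fitted lmFit and eBayes over 8 arrays to 122095 probes, and to 305 lone runs with at least 3 probes, with Benjamini-Hochberg adjustment at 0.05. Class differences were taken per array from medians and compared by exact permutation. Python 3.11.15, numpy 2.4.6, pandas 2.3.3 and scipy 1.17.1 were used. The fit was also run on simulated data with noise drawn independently for each array. That noise lacks the deviations shared by same-numbered arrays, so the simulation cannot tell how these affect the difference of the antibodies. The number of arrays limits the precision.

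The probes and classes were chosen with earlier results of these data known. Named were, per antibody, the 6 run sequences and 4 probes with the largest and the smallest UV effect, the 3 probes at each end of the antibody difference, and the 3 widest pairs of equal run length differing at 1 base. Frames, splits by opening step, and steps after A or C were added after values had been seen. Alternatives covered centring, normalization, intensity column, offset, dim and saturated spots, strand, summary, variance model, array blocks and leaving out each array.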

Additional observations from a re-analysis of the deposited data

Results flagged for a closer look

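The UV effects of the 2 antibodies differed, by limma's interaction term with Benjamini-Hochberg adjustment, for most of the run sequences and several of the probes named in the report. The difference, CPD minus 6-4PP on the log2 scale, was positive for 5 run sequences, with 0.51 for CCTTTT, 0.82 for TTCTTTC, 0.36 for TTTCCTT, 0.85 for TTTCTT and 0.89 for TTTCTTT. All hold at least 3 TT steps. It was negative for the others, with -0.18 for CCCC, -0.23 for CCCCC, -0.26 for CCCCCC, -0.31 for CCCCCT, -0.98 for CCCCTCC, -0.26 for CCCT, -1.39 for CTCCTCC, -0.96 for CTCCTT, -0.73 for CTTCCTT, -1.19 for CTTCTC, -0.45 for CTTCTT, -1.35 for TCCCCTC, -1.50 for TCCTCCC, -0.84 for TCCTTC and -1.10 for TCTCCCT. Among probes it was 2.23 for cgtatgcgTTTTCTatatgtatgc, 0.69 for gtatgcaTTCTTTTgtatgtatgc and 1.25 for gtatgcaTTTTCTTatatgtatgc on the positive side, and -1.21 for gtatgcatacaTTCCCTCacgcgc, -1.37 for gtatgcgtacaTCTCCTTatgcgc and -3.08 for tatgcatgcgcatgcaCTCCgcgc on the negative side. Arrays of both antibodies with the same number and UV condition deviated together, as described before the results. The values by run are medians over probes of both strands. With strands weighted equally, a setting chosen after seeing the data, TTCTTTC had 0.17 (0.18 printed, 0.17 complement). CCTTTT had 0.46, TTTCTT 0.45, TTTCTTT 0.76 and TTTCCTT 0.39, and TTTCCTT then did not pass (limma adjusted p = 0.0905). The negative differences by run stayed negative under that setting.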

How the results depend on the processing

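Counts and signs moved with the normalization and with the level set to 0. With no centring, 5993 probes passed upward with CPD, 300 were higher for CPD and 1655 higher for 6-4PP in the difference, and 23 runs were higher for CPD. Centred on the median of all probes, 1585 probes (CPD) and 1101 (6-4PP) passed upward, and the difference gave 2120 and 915. By run this centring gave 45 higher and 129 lower (CPD), 7 higher and 206 lower (6-4PP), and 112 and 62 for the difference. Quantile normalization gave 92, 24, 0 and 0 probes, and by run 22 higher and 73 lower (CPD), 2 higher and 85 lower (6-4PP), and in the difference 26 higher for CPD and 5 higher for 6-4PP. At an unadjusted p under 0.05 limma then called 432 probes higher for CPD and 235 higher for 6-4PP. Without the dimmest 25% of probes, 3619 passed upward with 6-4PP and 1405 were higher for 6-4PP in the difference. The printed strand alone gave 2177, 3060 and 1436. Among class differences, 1 cytosine minus 2 or more turned to 0.003 (quantile) and 0.002 (printed strand) with 6-4PP. Without the dimmest probes the CPD differences for A minus G before the run became -0.266 in all, -0.293 for runs opening with T and -0.342 for runs opening with C, and that for the base after it -0.045. The CPD difference by start became -0.005 (quantile) and -0.045 (complement strand), and the 6-4PP one 0.046 (mean for median), 0.25 (without the dimmest), 0.23 (printed strand) and 0.042 (strands weighted equally). Centred on the median of all probes, the CPD effects that changed sign were -1.109 for CCCC, -1.132 for CCCCC, -1.061 for CCCCCCC, -1.059 for CCCCCT, -1.012 for CCCT and -0.242 for CTTCTC. Centred on the median of all probes, the 6-4PP effects that changed sign were -1.549 for CCCC, -1.524 for CCCCC, -1.530 for CCCCCC, -1.406 for CCCCCCC, -1.371 for CCCCCT, -0.827 for CCCCTCC, -1.372 for CCCT, -0.154 for CCTTTT, -0.380 for CTCCTCC, -0.541 for TCCCCTC, -0.300 for TCCTCCC, -0.735 for TCTCCCT, -0.332 for TTCTTTC, -0.009 for TTTCTT and -0.373 for TTTCTTT. Centred on the median of all probes, the differences of the antibodies that changed sign were 0.440 for CCCC, 0.392 for CCCCC, 0.368 for CCCCCC, 0.345 for CCCCCCC, 0.311 for CCCCCT, 0.360 for CCCT and 0.178 for CTTCTT. After quantile normalization, the CPD effects that changed sign were -0.740 for CCCC, -0.869 for CCCCC, -0.993 for CCCCCCC, -0.921 for CCCCCT, -0.609 for CCCT and -0.094 for CTTCTC. After quantile normalization, the 6-4PP effects that changed sign were -0.854 for CCCC, -0.847 for CCCCC, -1.227 for CCCCCC, -1.249 for CCCCCCC, -0.887 for CCCCCT, -0.486 for CCCCTCC, -0.730 for CCCT, -0.270 for CCTTTT, -0.562 for CTCCTCC, -0.350 for TCCCCTC, -0.364 for TCCTCCC, -0.267 for TCTCCCT, -0.156 for TTCTTTC, -0.155 for TTTCTT and -0.234 for TTTCTTT. After quantile normalization, the differences of the antibodies that changed sign were 0.113 for CCCC, 0.287 for CCCCCC, 0.121 for CCCT, 0.091 for CTCCTT and 0.033 for TCCTTC. With no centring, the CPD effects that changed sign were 0.489 for CCCCCC, 0.469 for CCCCTCC, 0.503 for CTCCTCC, 0.389 for TCCCCTC, 0.477 for TCCTCCC and 0.442 for TCTCCCT. With no centring, the 6-4PP effects that changed sign were 0.426 for cgtatgcgTTTTCTatatgtatgc. TCTCCCT had 0.212 with CPD on unadjusted intensity, TCCTCCC 0.313 with CPD on the printed strand, and CCCCCC -0.016 with 6-4PP on the complement. Without CPD non-UV replicate 1 the probe tatgcacatgCCTTgtatgtatgc had 2.004 with CPD, the range over left-out arrays being -3.736 to 2.004. Without 6-4PP non-UV replicate 2 cgtatgcGAGAtgtatatgtatgc had 0.761 with 6-4PP and -0.566 in the difference, with ranges of -4.820 to 0.761 and -0.566 to 5.015. Leaving out each array in turn gave 3416 to 4027 probes upward (CPD), 5472 to 5776 (6-4PP), 383 to 598 and 1920 to 2420 (difference), and 164 to 191, 235 to 236, 29 to 43 and 126 to 145 runs. Same-numbered UV and non-UV arrays of an antibody did not deviate together probe by probe (r = 0.000791 for CPD and -0.00323 for 6-4PP). A shift of whole arrays would not show in this correlation, so whether they share more than a number was not tested. With the replicate number as a block, 3996 (CPD) and 5859 (6-4PP) probes passed upward, 587 and 2527 in the difference, and 182, 236, 38 and 139 runs. With same-numbered arrays of the antibodies as a block, chosen after seeing the data, the difference gave 761 and 3024 probes and 37 and 139 runs. Fitted on the arrays of 1 antibody alone, 3965 probes and 188 runs passed upward with CPD. With 6-4PP that fit gave 5619 probes and 236 runs. The cause of these changes was not tested. Background, near the level of probes without a step, limits what can be told of the weakest runs.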
